A study of Mus musculus with 6 samples.

Results

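The Notch genes measured were 4 receptors (Notch1, Notch2, Notch3 and Notch4), 3 ligands (Jag1, Jag2 and Dll1) and 3 target genes (Hes1, Hey1 and Hey2), taken by gene symbol from the probe annotation of the array. They make up 10 of the 34797 gene names on the array and were read by 13 of its 55681 probes. The cells were immortalized murine embryonic fibroblasts (MEF), which are connective tissue cells from mouse embryos kept growing in culture. WT MEF carried the strain label W4, TIA1 KO MEF were TIA1 knock out cells with the label BALB/c, and TIAR KO MEF were TIAR knock out cells with the label C57BL/6. TIA1 and TIAR are related RNA-binding proteins that act in splicing and in the control of translation, and the study asked how the transcriptome of MEF differs when either is missing. Total RNA of 2 independent replicates per group was hybridized in 1 colour to Agilent SurePrint G3 mouse arrays, giving 6 arrays in all. Since each genotype had its own strain label, the knocked-out gene, the strain and the history of the cells cannot be told apart. The slide was shared by all 6 arrays, but those of TIA1 KO lay in another of its rows than the other 4, so that slide row and TIA1 loss cannot be told apart either.

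Notch receptors are single-pass membrane proteins that bind Jagged and Delta-like ligands on a neighbouring cell. Binding lets an ADAM protease and then gamma-secretase cut the receptor, and the freed intracellular part joins Rbpj and Mastermind-like proteins in the nucleus to switch on targets such as the Hes and Hey repressors. In mesenchymal cells the pathway is best known from vascular smooth muscle cells and pericytes, where Notch3 is the typical receptor, while Notch4 is known mainly from endothelium.

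For the members that rose together in TIAR KO MEF, the 250 bases before the annotated start are printed below from the RefSeq promoters of GRCm38.p6, together with that of Hey2, so that the motifs of Notch-pathway factors can be seen. Capitals mark matches, on either strand, to GTGGGAA, a core motif bound by Rbpj, to CACGTG, an E-box bound by Hes and Hey factors, or to the related motifs CACGCG, also of both families, and CACGAG, of the N-box type. Neighbouring matches may share letters. Sequences run 5′ to 3′ on the strand of the gene. Promoters were given for 8 of the 10 members, and Hes1 and Hey1 are named only.
Notch3, chr17:32166891-32167140, minus strand: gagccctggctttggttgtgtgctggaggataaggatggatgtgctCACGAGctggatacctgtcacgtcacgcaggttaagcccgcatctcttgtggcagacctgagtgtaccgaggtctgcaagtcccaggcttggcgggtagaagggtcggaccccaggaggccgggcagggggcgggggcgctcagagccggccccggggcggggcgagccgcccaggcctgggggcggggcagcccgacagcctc
Jag1, chr2:137116521-137116770, minus strand: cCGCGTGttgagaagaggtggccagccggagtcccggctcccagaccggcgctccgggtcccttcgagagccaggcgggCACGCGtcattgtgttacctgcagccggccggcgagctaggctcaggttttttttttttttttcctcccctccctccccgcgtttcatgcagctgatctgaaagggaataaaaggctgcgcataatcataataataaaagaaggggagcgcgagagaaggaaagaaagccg
Dll1, upstream start, chr17:15376933-15377182, minus strand: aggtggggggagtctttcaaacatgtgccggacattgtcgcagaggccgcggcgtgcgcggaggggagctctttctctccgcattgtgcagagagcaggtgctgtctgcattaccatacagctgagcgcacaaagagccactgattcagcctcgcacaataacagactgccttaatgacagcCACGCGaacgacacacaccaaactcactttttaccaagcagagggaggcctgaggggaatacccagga
Dll1, downstream start, chr17:15375824-15376073, minus strand: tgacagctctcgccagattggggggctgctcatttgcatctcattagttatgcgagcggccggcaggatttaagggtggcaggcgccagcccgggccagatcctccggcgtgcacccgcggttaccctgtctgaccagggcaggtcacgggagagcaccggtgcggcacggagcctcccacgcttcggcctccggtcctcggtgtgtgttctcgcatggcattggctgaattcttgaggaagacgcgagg
Hey2, chr10:30842784-30843033, minus strand: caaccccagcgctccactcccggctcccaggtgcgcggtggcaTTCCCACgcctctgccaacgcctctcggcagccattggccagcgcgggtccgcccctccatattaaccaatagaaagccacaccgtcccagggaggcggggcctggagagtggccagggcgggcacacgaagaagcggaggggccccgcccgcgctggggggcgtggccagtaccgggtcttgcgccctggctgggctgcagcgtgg
Notch3 held 1 CACGAG, Jag1 held 2 CACGCG and 1 of the Dll1 promoters held 1 CACGCG. Notch2, which was not called, held 1 CACGCG as well, and the windows of Notch1, Notch4 and Jag2 held none of the 4 motifs. Hey2 was the member whose window held a GTGGGAA, and it was called in neither knockout. Among all 32851 promoter windows of this length, 5.42% held GTGGGAA, 6.02% CACGTG, 7.62% CACGCG and 5.37% CACGAG. These shares were not matched for GC content, which had a median of 52.4% over all promoters and ran from 56.0% to 87.2% in the member windows. The matches describe these windows and are not shown to be binding sites.

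Values are normalized log2 intensities, and a probe was rated well above background on an array by the scanner software. The TIA1 KO arrays stood apart before normalization. Their median spot intensity was 458 on TIA1 KO replicate 1 and 218 on replicate 2, against 152 and 140 for WT and 136 and 119 for TIAR KO. The median of the negative control spots was 196 and 119 for TIA1 KO, 112 and 103 for WT, and 96.7 and 88.6 for TIAR KO. Fewer probes were well above background on the TIA1 KO arrays (16000 and 19920) than on the WT (23531 and 26254) and TIAR KO arrays (24754 and 25985). Correlations between the replicates were 0.989 for WT, 0.972 for TIA1 KO and 0.988 for TIAR KO, across probes, which are not independent.

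The knocked-out genes were read next. In each pair of values that follows, replicate 1 comes before replicate 2. The brightest Tia1 probe read 10.72 and 8.54 (WT), 7.87 and 8.44 (TIA1 KO) and 9.56 and 9.58 (TIAR KO). TIA1 KO lay below WT, by a log2 difference of -1.47 ± 0.79 (SE), which did not pass the test (limma, adjusted p = 0.288). A second Tia1 probe read 9.56 and 9.90 (WT), 7.57 and 8.65 (TIA1 KO) and 9.98 and 8.63 (TIAR KO), a log2 difference of -1.62 ± 0.42 in TIA1 KO (limma adjusted p = 0.116). The other, well above background on 1 array, of TIA1 KO, had 0.87 ± 0.28 there (adjusted p = 0.149). No Tia1 probe was therefore called in TIA1 KO. The Tial1 probe measured on all 6 arrays, for the gene encoding TIAR, read 11.71 and 11.09 (WT), 11.85 and 11.49 (TIA1 KO) and 10.00 and 9.65 (TIAR KO). It was lower in TIAR KO by a log2 difference of -1.58 ± 0.26 (limma, adjusted p = 0.0254). The brightest Tial1 probe, whose spot on WT replicate 1 was left out as an outlier and whose fit therefore rests on the 3 other arrays, read 13.22 in WT replicate 2 against 9.57 and 11.60 in TIAR KO. Its log2 difference of -2.63 in TIAR KO was not called. Where these probes lie relative to the deleted parts was not analysed here.

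In TIAR KO MEF, 4 of the 10 Notch genes rose against WT: the receptor Notch3, the ligands Jag1 and Dll1 and the target Hey1. In TIA1 KO MEF, Notch3 rose and Notch4 fell. Compared directly, TIAR KO MEF had more Notch3 and less Notch1 than TIA1 KO MEF. A gene was read from its brightest probe and called when limma gave an adjusted p under 0.05, corrected over all probes, together with a fold change above 2. By these limits 3.54% of all probes were called in TIA1 KO against WT, 5.76% in TIAR KO against WT and 3.35% in TIAR KO against TIA1 KO. Over the brightest probe of each gene name the shares were 4.51%, 7.18% and 4.18%, beside 2, 4 and 2 of the 10 members. By direction, 2.88% of gene names were called higher and 1.63% lower in TIA1 KO, beside 1 member each way, and 2.06% higher and 2.12% lower between the knockouts, also beside 1 member each way. In TIAR KO the shares were 4.36% higher and 2.83% lower, beside 4 and 0 members by limma, where 1 member was lower at an unadjusted p under 0.05. Such an unadjusted p was reached by 29.2% of all gene names in TIA1 KO, 23.1% in TIAR KO and 24.7% between the knockouts, beside 4, 7 and 5 of the 10 members. The median log2 change of the members was 0.75 in TIA1 KO and 0.50 in TIAR KO, where all probes had medians of -0.09 and -0.02. Both knockout comparisons share the 2 WT arrays.

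**Figure D1:**
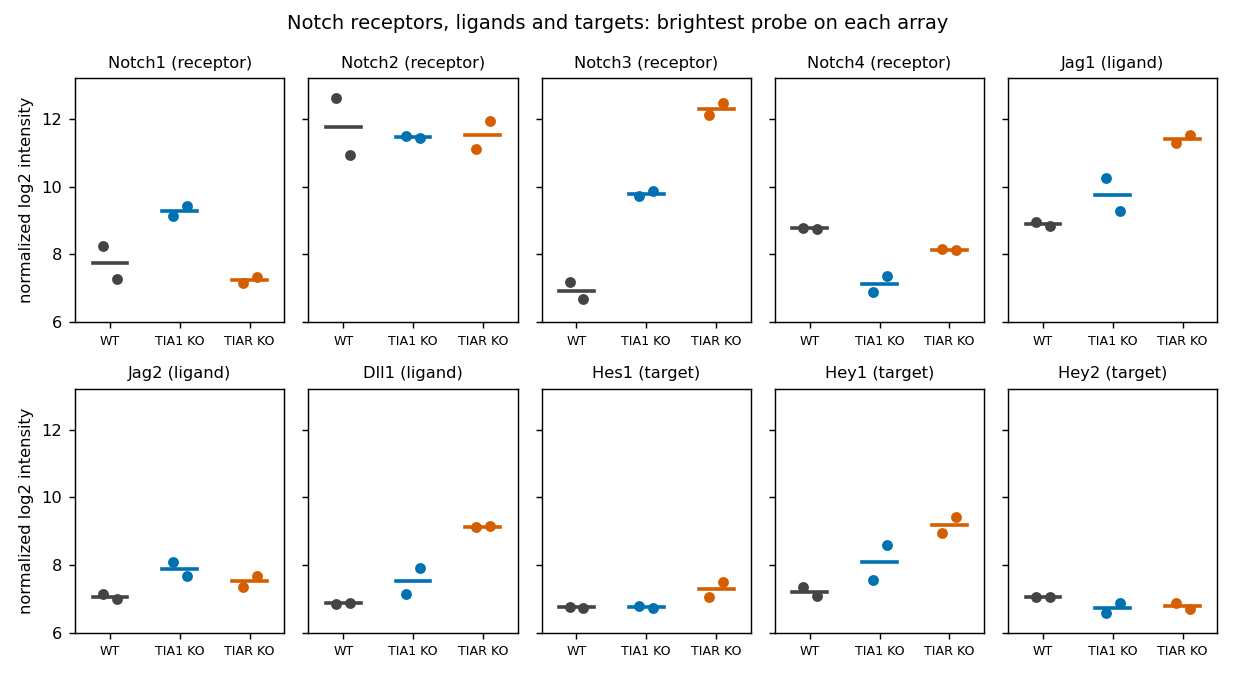
Normalized log2 intensity (y axis) of the brightest probe of each of the 10 Notch genes on the 2 WT, 2 TIA1 KO and 2 TIAR KO arrays, where points are arrays and lines are group means. Notch3, Jag1, Dll1 and Hey1 were highest in TIAR KO, Notch4 was lowest in TIA1 KO, and the 2 WT arrays of Notch2 lay further apart than its group means did.

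Notch3, a receptor typical of mural cells, showed the widest range of the 10 members. Its probe (mm9 chr17:32257848-32257907) read 7.18 and 6.67 (WT), 9.72 and 9.86 (TIA1 KO) and 12.11 and 12.48 (TIAR KO). No array of one group overlapped another group, and the probe was well above background on all 4 knockout arrays but on neither WT array. Without regard to size, the 2 arrays of each group did not overlap at 65.2% of all probes in TIA1 KO against WT, 49% in TIAR KO against WT and 59.9% in TIAR KO against TIA1 KO, beside 8, 8 and 7 of the 10 members. Where no array of the lower group was well above background, a fold is given as at least so large, taking each dim array at the lowest intensity that its scanner rated well above background, or at the measured value of the probe if higher. Such a bound holds for the processing reported here only, and it can equal the measured fold. Notch3 rose at least 7.28-fold in TIA1 KO (log2 change 2.87 ± 0.23, limma adjusted p = 0.0165) and at least 41.3-fold in TIAR KO (5.37 ± 0.24, adjusted p = 0.000444). The measured folds were 7.30 and 41.4. Other settings gave log2 changes as low as 1.77 in TIA1 KO, with a common median, and 4.91 in TIAR KO. TIAR KO exceeded TIA1 KO by 5.67-fold (2.50 ± 0.20, limma adjusted p = 0.0171). The rise in TIA1 KO did not pass without either WT array (adjusted p = 0.241 and 0.246) nor in 3 of the other settings tried, in which its log2 change was 2.19 to 4.92. The difference between the knockouts did not pass without either TIAR KO array, with the processed signal scaled to its 75th percentile, or with a replicate block (adjusted p = 0.0754).

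Notch4, the receptor known mainly from endothelium, was the member that fell against WT. Its probe (mm9 chr17:34725120-34725179) read 8.78 and 8.77 (WT), 6.89 and 7.36 (TIA1 KO) and 8.15 and 8.12 (TIAR KO). All 3 groups were apart, with TIA1 KO lowest and not well above background on either array. Notch4 fell by at least 2.11-fold in TIA1 KO (log2 change -1.65 ± 0.22, limma adjusted p = 0.0432). In TIAR KO its log2 change of -0.64 ± 0.14 did not pass (adjusted p = 0.0579), nor did the difference of 1.01 ± 0.22, at least 1.36-fold, between the knockouts (adjusted p = 0.108), which passed when replicate 2 of TIA1 KO was left out (1.25, adjusted p = 0.0149) or all groups were fitted together (adjusted p = 0.0424). The call in TIA1 KO sat close to the threshold and was lost in 6 of 15 alternatives, among them a normexp offset of 16 (adjusted p = 0.0516), a replicate block (adjusted p = 0.0835) and leaving out either WT array (adjusted p = 0.357 and 0.345). The negative control spots were brighter on the TIA1 KO arrays, as given above, and their part in this result was not tested.

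Notch1 differed between the knockouts. Its brighter probe (mm9 chr2:26319440-26319499) read 8.25 and 7.27 (WT), 9.14 and 9.44 (TIA1 KO) and 7.15 and 7.32 (TIAR KO). The TIA1 KO arrays were the highest, although only 1 of them was well above background, and the WT arrays lay apart and overlapped the TIAR KO arrays. TIAR KO was lower than TIA1 KO by at least 4.16-fold (log2 difference -2.06 ± 0.19, limma adjusted p = 0.0220). Against WT, the change of 1.53 ± 0.38 in TIA1 KO did not pass (adjusted p = 0.112), except with all 3 groups in 1 fit (1.53, adjusted p = 0.0490) or a common median (1.19, adjusted p = 0.0475). Nor did that of -0.53 ± 0.34 in TIAR KO (adjusted p = 0.488). A second Notch1 probe (mm9 chr2:26314630-26314689) was near background on all 6 arrays and gave 0.28 ± 0.29 for the same difference. With dim probes left out, Notch1 was not tested between the knockouts. With the mean of both probes the difference was -0.89 (adjusted p = 0.109). It was also lost with a replicate block (adjusted p = 0.0855) and without either TIAR KO array (adjusted p = 0.282 and 0.270).

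Notch2, a receptor of many mesenchymal cells, was well above background on every array and was not called in any of the comparisons as fitted. Its brighter probe (mm9 chr3:97953914-97953973) read 12.61 and 10.92 (WT), 11.50 and 11.45 (TIA1 KO) and 11.12 and 11.95 (TIAR KO). The WT arrays enclosed all others. The log2 change was -0.29 ± 0.60 in TIA1 KO (limma adjusted p = 0.758) and -0.24 ± 0.59 in TIAR KO (adjusted p = 0.889). Without WT replicate 1 both turned positive, at 0.55 and 0.61. With arrays scaled to a common median, where all probes had a median of -0.67, the change in TIA1 KO was -1.79 and passed (adjusted p = 0.00176). A second probe of Notch2 was well above background on 2 of the 6 arrays and was not called in any comparison.

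Jag1, a ligand of the Jagged class, was well above background on all 6 arrays. Its probe (mm9 chr2:136907433-136907492) read 8.96 and 8.84 (WT), 10.25 and 9.27 (TIA1 KO) and 11.28 and 11.52 (TIAR KO). The groups did not overlap, and the TIA1 KO arrays lay further apart from each other than those of the other groups. Jag1 rose 5.66-fold in TIAR KO (log2 change 2.50 ± 0.16, limma adjusted p = 0.00124). In TIA1 KO its change of 0.86 ± 0.37 did not pass (adjusted p = 0.217), but it did when replicate 2 of TIA1 KO was left out (1.35, adjusted p = 0.0170), whereas it was 0.37 without replicate 1. It was -0.28 with arrays scaled to a common median, where all probes had a median of -0.67. The difference of 1.64 ± 0.37 between the knockouts did not pass either (adjusted p = 0.116), but did without TIA1 KO replicate 1 (2.13, adjusted p = 0.0120) or without TIA1 KO replicate 2 (1.15, adjusted p = 0.0224), with a common median and with all groups in 1 fit.

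Dll1, a ligand of the Delta class, was read by a probe with 10 spots per array. That probe (mm9 chr17:15504623-15504682) read 6.87 and 6.87 (WT), 7.16 and 7.91 (TIA1 KO) and 9.11 and 9.15 (TIAR KO). The TIAR KO arrays were the 2 on which it was well above background, and no groups overlapped. WT and TIA1 KO were both near background, so no direction can be read between them. Spots of the same array varied with an SD of 0.187 to 0.283. Dll1 rose at least 4.30-fold in TIAR KO (log2 change 2.26 ± 0.14, limma adjusted p = 0.00107). In TIA1 KO the change was 0.67 ± 0.30 (adjusted p = 0.230) and the difference between the knockouts 1.60 ± 0.30, at least 2.24-fold (adjusted p = 0.0830), which passed when either TIA1 KO array was left out (1.22 and 1.98, adjusted p = 0.0355 and 0.00631) and in 3 other alternatives. A second Dll1 probe (mm9 chr17:15513726-15513785) was well above background on 1 of the 6 arrays, of WT, and the mean of both probes still rose in TIAR KO, by 1.03 (adjusted p = 0.0285).

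Jag2, the other Jagged ligand, stayed close to background. Its probe (mm9 chr12:114146887-114146946) read 7.14 and 6.99 (WT), 8.09 and 7.69 (TIA1 KO) and 7.36 and 7.69 (TIAR KO). It was well above background on 1 array, of TIAR KO, where the change of 0.46 ± 0.18 did not pass (limma adjusted p = 0.236). On the WT and TIA1 KO arrays it was near background throughout, so no direction can be read between those groups. This holds also for the call without replicate 2 of TIA1 KO (1.02, limma adjusted p = 0.0296).

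Hey1, a repressor among the direct Notch targets, rose in TIAR KO. Its probe (mm9 chr3:8663432-8663491) read 7.34 and 7.09 (WT), 7.55 and 8.60 (TIA1 KO) and 8.95 and 9.41 (TIAR KO). It was near background on both WT arrays, above it on 1 TIA1 KO array and on both TIAR KO arrays, and no groups overlapped. Hey1 rose at least 3.90-fold in TIAR KO (log2 change 1.97 ± 0.21, limma adjusted p = 0.00644). In TIA1 KO the change of 0.86 ± 0.40 did not pass (adjusted p = 0.241), but did without TIA1 KO replicate 1 (1.39, adjusted p = 0.0459). The knockouts differed by 1.10 ± 0.42, which did not pass (adjusted p = 0.229) but did when replicate 2 of TIA1 KO was left out (1.63, adjusted p = 0.0164) or with a common median (1.31, adjusted p = 0.0472).

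Hes1 and Hey2, the other target genes, were near background. The Hes1 probe (mm9 chr16:30067820-30067879) read 6.77 and 6.73 (WT), 6.78 and 6.74 (TIA1 KO) and 7.06 and 7.51 (TIAR KO). The TIAR KO arrays were above the rest, 1 of them well above background, and the change of 0.53 ± 0.20 did not pass (limma adjusted p = 0.214). The Hey2 probe (mm9 chr10:30552729-30552788) read between 6.59 and 7.07 and was well above background on no array. No direction can be read for a probe at that level.

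**Figure D2:**
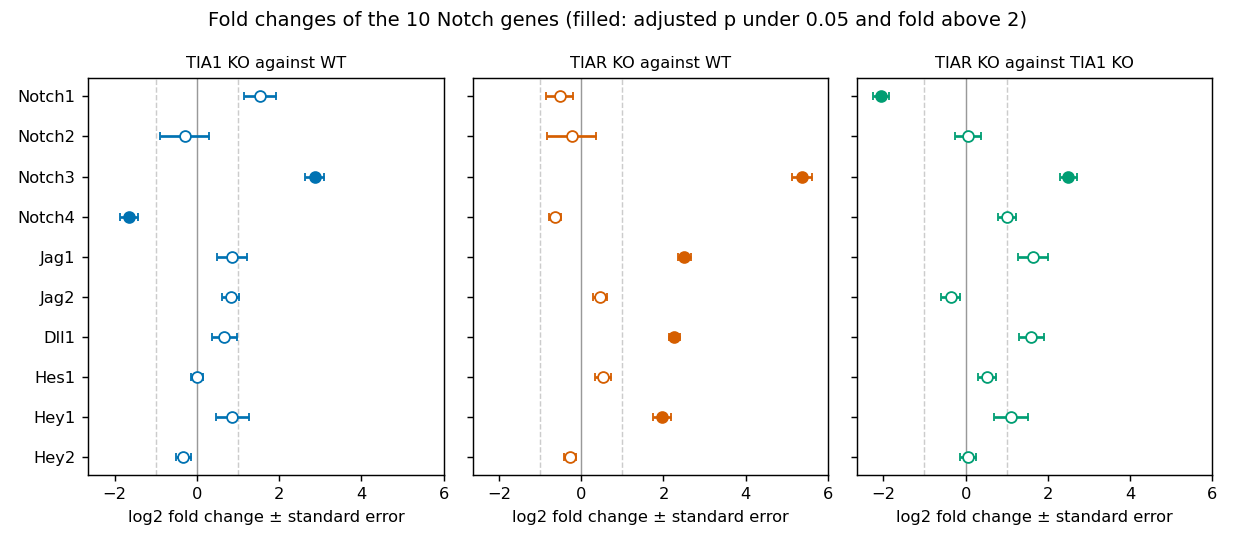
Log2 fold change (x axis) with its standard error for each of the 10 Notch genes in the 3 comparisons, where filled points passed both limits and dashed lines mark a 2-fold change. The filled points are Notch3 and Notch4 in TIA1 KO, Notch3, Jag1, Dll1 and Hey1 in TIAR KO, and Notch1 and Notch3 between the knockouts.

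The calls were compared across other ways of processing. The 4 genes that rose in TIAR KO were called in all 15 alternatives, with log2 changes of 4.91 to 7.59 for Notch3, 2.31 to 2.74 for Jag1, 1.03 to 5.25 for Dll1 and 1.74 to 3.93 for Hey1. In TIA1 KO the number of Notch genes called ran from 0 to 4. When replicate 1 of TIA1 KO was left out it was 3, when replicate 2 was left out it was 4, and without either WT array it was 0. In the deposited log2 table, fitted in the same way, Notch3 changed by 2.30 in TIA1 KO (adjusted p = 0.0554) and 4.99 in TIAR KO (adjusted p = 0.000243), and Notch4 by -1.73 in TIA1 KO (adjusted p = 0.0418).

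**Figure D3:**
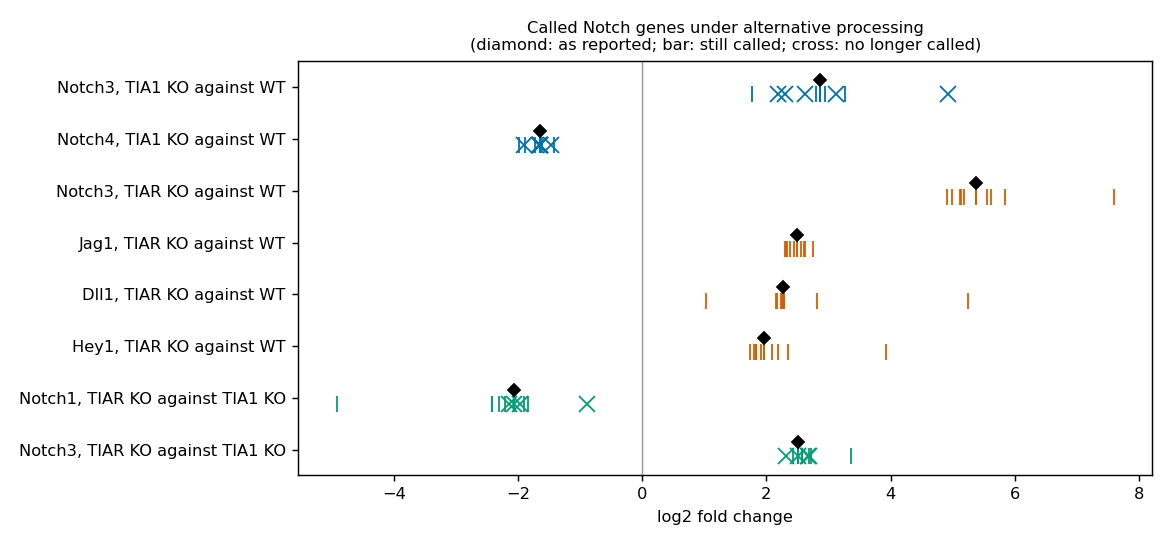
Log2 fold change (x axis) of each called Notch gene as reported (diamond) and under each alternative, drawn as a bar where the call was kept and as a cross where it was not. All marks in TIAR KO against WT are bars, whereas Notch3 and Notch4 in TIA1 KO and both genes between the knockouts have 4 to 6 crosses each.

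The rest of the pathway was read from lists of 70 further genes, of which 69 were on the array. In TIA1 KO, 7 were higher and 1 was lower than WT (11.6% called), and in TIAR KO 8 were higher and 3 lower (15.9%), beside 4.51% and 7.18% of all gene names. The median log2 change of these genes was 0.04 in TIA1 KO and -0.04 in TIAR KO. Between the knockouts, 1 was higher in TIAR KO and 5 were lower (8.70%, beside 4.18% of all gene names). These shares of all gene names include genes near background, which lowers them. With dim probes left out, 2922 of 23423 probes were called in TIA1 KO and 3334 of 25187 in TIAR KO. Between the knockouts it was 2910 of 24025. Whether the pathway genes were called more often than other genes of like brightness was not tested.

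The changes with the widest range lay among non-canonical ligands, proteins that bind Notch without the domain shared by Jagged and Delta-like ligands. Mfap5, a microfibril glycoprotein, read 6.73 and 6.95 (WT), 14.22 and 14.66 (TIA1 KO) and 8.36 and 8.49 (TIAR KO). It was well above background on 1 WT array and rose in both knockouts, by 7.60 ± 0.22 on the log2 scale in TIA1 KO (limma adjusted p = 0.00363) and 1.59 ± 0.16 in TIAR KO (adjusted p = 0.00519). Its call in TIA1 KO was lost in 3 of 15 alternatives. Mfap2, a related microfibril protein, read 8.24 and 8.61 (WT), 12.09 and 12.50 (TIA1 KO) and 7.51 and 7.29 (TIAR KO). It rose in TIA1 KO (3.87 ± 0.24, limma adjusted p = 0.00923) and fell in TIAR KO (-1.02 ± 0.19, adjusted p = 0.0367), where the fall was lost in 8 of 15 alternatives. The rise of Mfap2 in TIA1 KO was lost in 3 of 15. Dlk2, a membrane protein related to Delta, read 13.45 and 13.63 (WT), 14.81 and 14.76 (TIA1 KO) and 11.88 and 11.88 (TIAR KO). It too was higher in TIA1 KO (1.25 ± 0.16, limma adjusted p = 0.0403), though -0.30 with arrays scaled to a common median and not called in 7 others of 15 alternatives, and fell in TIAR KO (-1.66 ± 0.15, adjusted p = 0.00347). All 3 differed between the knockouts, by -6.01 for Mfap5, -4.89 for Mfap2 and -2.91 for Dlk2. The other 3 non-canonical ligands were not called.

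Among genes that modify ligands and receptors, Neurl1a, a ubiquitin ligase of ligand endocytosis, rose in TIA1 KO (1.44 ± 0.16, limma adjusted p = 0.0310) and had -0.40 in TIAR KO. Its call in TIA1 KO was lost in 5 of 15 alternatives, with a change as low as 0.10. Mfng, a glycosyltransferase of Notch receptors, fell in TIA1 KO (-1.45 ± 0.21, adjusted p = 0.0496), by at least 1.69-fold, and the call was lost in 10 of 15 alternatives. None of the 9 receptor cleavage genes was called by limma in either knockout, though 4 in TIA1 KO and 1 in TIAR KO had an unadjusted p under 0.05. Over all gene names, 4.51% in TIA1 KO and 7.18% in TIAR KO were called, and 29.2% and 23.1% reached such an unadjusted p. Both other canonical ligands also stayed below the limits, with an unadjusted p under 0.05 for 1 of them in TIA1 KO and for 0 in TIAR KO, and Dll4 was near background on all arrays.

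In the nucleus, none of the 10 genes of the Rbpj complex was called by limma, while 3 in TIA1 KO and 4 in TIAR KO had an unadjusted p under 0.05, beside 29.2% and 23.1% of all gene names. Of these, Maml2, a Mastermind-like co-activator, had an adjusted p of 0.0450 in TIAR KO (limma) and missed the call by its fold change of 1.96. Rbpj itself read 12.21 and 13.16 (WT), 11.57 and 11.80 (TIA1 KO) and 11.84 and 11.73 (TIAR KO). Both knockouts, with means of 11.68 and 11.78, lay below the WT mean of 12.69 without passing (adjusted p = 0.177 and 0.203). Among 11 co-repressors, 4 were called in TIAR KO, all of them Groucho-related Tle genes. Tle1 fell (-1.96 ± 0.14, limma adjusted p = 0.00167), whereas Tle2 (1.47 ± 0.24, adjusted p = 0.0237), Tle3 (1.03 ± 0.14, adjusted p = 0.0142) and Tle4 (1.50 ± 0.17, adjusted p = 0.00803) rose. The call in TIAR KO was lost in 7 of 15 alternatives for Tle3, 3 of 15 for Tle2 and 2 of 15 for Tle4, and kept in all 15 for Tle1. In TIA1 KO, Tle2 had a change of 1.30 ± 0.26 that did not pass (limma adjusted p = 0.0860). Tle3 was also higher in TIA1 KO (1.13 ± 0.15, limma adjusted p = 0.0427). There its change was -0.46 with arrays scaled to a common median, and it was not called in 8 others of 15 alternatives.

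Of the other Hes and Hey genes, Hes6, which is known to counteract Hes1, rose in TIAR KO (1.11 ± 0.17, limma adjusted p = 0.0202), a call lost in 5 of 15 alternatives, and the remaining 5 were not called in either knockout. Hes6 had 0.78 ± 0.18 in TIA1 KO, which did not pass (limma adjusted p = 0.105). Heyl was near background on all 6 arrays. Dtx4, a member of the Deltex family that acts on Notch turnover, rose in TIAR KO (1.55 ± 0.15, adjusted p = 0.00491) and had 1.15 ± 0.17 in TIA1 KO (adjusted p = 0.0504). Among other targets, Pdgfrb, the PDGF receptor of mural cells and fibroblasts, read 9.77 and 8.86 (WT), 12.80 and 13.03 (TIA1 KO) and 13.32 and 12.94 (TIAR KO). All knockout arrays were above both WT arrays, and Pdgfrb rose in TIA1 KO (3.60 ± 0.35, limma adjusted p = 0.0246) and TIAR KO (3.81 ± 0.33, adjusted p = 0.00329). Its call in TIA1 KO was lost in 4 of 15 alternatives. Efnb2, an ephrin, rose in TIA1 KO (1.91 ± 0.16, adjusted p = 0.0187), a call lost in 6 of 15 alternatives with a change as low as 0.36. Snai2, a repressor of epithelial genes, rose in TIAR KO (1.41 ± 0.22, limma adjusted p = 0.0209), which was lost in 5 of 15. In TIA1 KO, Snai2 had a similar change of 1.30 ± 0.23 that did not pass (limma adjusted p = 0.0704). Nrarp, a feedback inhibitor that is a direct Notch target, was well above background on 1 of the 6 arrays, and its change did not pass (0.22 ± 0.27 in TIA1 KO and -0.29 ± 0.15 in TIAR KO).

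**Figure D4:**
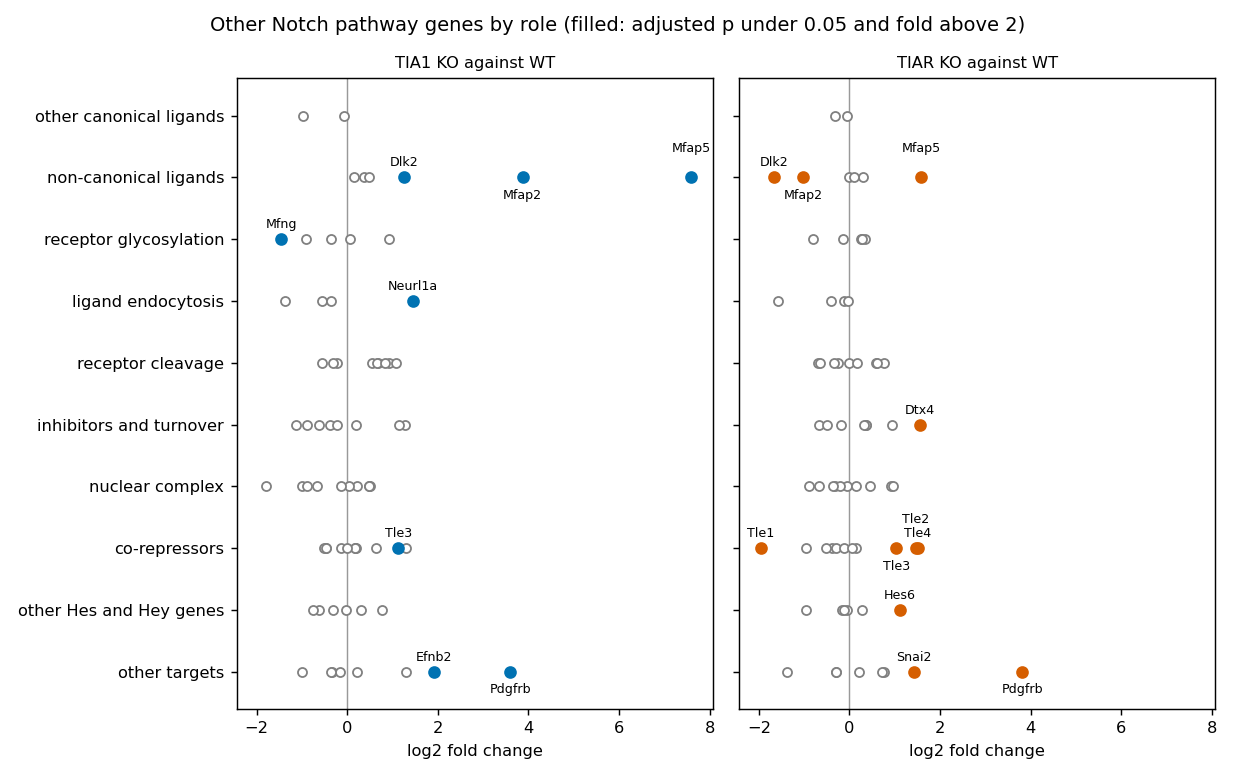
Log2 fold change (x axis) of 69 other Notch pathway genes grouped by role, in TIA1 KO and in TIAR KO against WT, with genes past both limits filled and named. Filled points lie mainly among non-canonical ligands, co-repressors and other targets, and the rows for receptor cleavage and the nuclear complex hold none.

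The labelled cell type was checked with markers, which moved with the groups. Of 10 fibroblast markers, 6 rose in TIA1 KO and 7 in TIAR KO. Beside these and the markers below, 4.51% of all gene names were called in TIA1 KO and 7.18% in TIAR KO. The calls in TIA1 KO were lost in 7 of 15 alternatives for Col1a2, 5 of 15 for Col1a1, 5 of 14 for Dcn and 3 of 15 for Col3a1, Pdgfra and Fn1. Dcn, the proteoglycan decorin, rose by 2.67 ± 0.15 on the log2 scale in TIA1 KO (limma adjusted p = 0.00773) and by 9.15 ± 0.15 in TIAR KO (adjusted p = 0.000176). Thy1, a surface glycoprotein of fibroblasts, rose by 7.98 ± 0.18 in TIAR KO (limma adjusted p = 0.000176) and had 0.49 ± 0.23 in TIA1 KO (adjusted p = 0.244). TIAR KO was the higher of the knockouts for both genes. Each was well above background on only 1 WT array. In TIA1 KO, Dcn was so on 1 array and Thy1 on neither, so the lower values of both genes lay near background. The summed intensity of the 10 markers was 532719 and 566746 (WT), 1307774 and 1281377 (TIA1 KO) and 1382168 and 1410965 (TIAR KO). The brightest was S100a4 on both WT arrays and on TIAR KO replicate 2 and Col1a2 on the other 3. Pdgfra, a defining fibroblast receptor, was not well above background on either WT array, and Lum was so on no array. Pdgfra rose at least 9.52-fold in TIA1 KO and at least 26.1-fold in TIAR KO (limma adjusted p = 0.00521 and 0.000189).

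Of 11 smooth muscle and pericyte markers, 3 rose in TIA1 KO (Acta2, Tagln and Cspg4), while in TIAR KO 4 rose (Acta2, Tagln, Cnn1 and Des) and Cspg4 fell. Their summed intensity was 63274 and 75030 (WT), 308974 and 341991 (TIA1 KO) and 531847 and 482513 (TIAR KO). The brightest was Mcam on the WT arrays and Acta2, the smooth muscle actin, on the knockout arrays. Acta2 read 12.63 and 12.99 (WT), 17.58 and 17.73 (TIA1 KO) and 18.45 and 18.26 (TIAR KO). It rose by 4.85 ± 0.20 on the log2 scale in TIA1 KO (limma adjusted p = 0.00492) and 5.54 ± 0.18 in TIAR KO (adjusted p = 0.000254). The calls of Acta2, Tagln and Cspg4 in TIA1 KO were each lost in 3 of 15 alternatives, and that of Des in TIAR KO in 2 of 15. The defining markers Myh11, Rgs5, Abcc9 and Kcnj8 were near background on all 6 arrays. In these bulk samples, more cells of a type and more RNA per cell cannot be told apart, and the part of these markers in the Notch results was not tested.

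None of 10 endothelial markers was called by limma, with 1 in TIA1 KO and 2 in TIAR KO at an unadjusted p under 0.05. Such an unadjusted p was reached by 29.2% and 23.1% of all gene names. Cdh5, Tie1, Emcn, Esam, Cldn5 and Erg were near background on all 6 arrays. The brightest was Kdr on every array, and the summed intensity ran from 3632 to 4456. Of 10 leukocyte markers, Itgam rose in TIA1 KO, a call lost in 9 of 15 alternatives, and Aif1 fell in TIAR KO, with Ptprc, Emr1 and Lyz2 near background on all arrays, Itgam the brightest throughout and a summed intensity from 6053 to 16301. Of 10 epithelial markers, Krt8 rose in TIA1 KO, a call lost in 10 of 15 alternatives, and Cdh1, Krt8 and Krt18 rose in TIAR KO. Their summed intensity was 1873 and 1866 (WT), 1738 and 2158 (TIA1 KO) and 3126 and 3151 (TIAR KO), led by Krt8 except in TIAR KO, where Krt18 led.

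For the members called against WT, the genes with the most similar pattern over the 6 arrays were named by the root mean square (RMS) difference between profiles centred on their means, among 18884 candidate probes. Nearest to Notch3 were Gata6 (RMS 0.222), Lifr (0.263) and Olfml3 (0.316). Gata6, a GATA transcription factor, read 7.53 and 7.50 (WT), 10.42 and 10.75 (TIA1 KO) and 12.81 and 12.79 (TIAR KO). Like Notch3, it was lowest in WT and highest in TIAR KO. Nearest to Notch4 were Gbp2 (0.0422), Cnfn (0.0721) and Lat2 (0.0758), and nearest to Jag1 were Etl4 (0.211) and Prkag2 (0.228). Nearest to Dll1 were Zfp810 (0.0936), Rhbdl3 (0.102) and Slc22a23 (0.117), and nearest to Hey1 were LOC668643 (0.130), Gm4610 (0.133) and C3ar1 (0.149).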

How the data were processed

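Each of the 3 groups (WT, TIA1 KO and TIAR KO MEF) gave total RNA for 2 arrays with 1 colour. Per the file headers, spots were measured with Agilent Feature Extraction 10.7.3.1 and probe positions refer to mm9. The deposited intensity values (mean spot signal, local background and processed signal) were not normalized between arrays. A second kind of file, deposited by the authors, holds 1 log2 value per spot after normexp, loess and quantile normalization, per their methods, and its columns have medians of 7.22 to 7.23. The submitters' processing notes name limma.

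Background was corrected by normexp (offset 50). The log2 values then went through 1 pass of fast cyclic loess (span 0.7) and quantile normalization. Control spots and outlier spots (176 to 291 per array) were left out, spots of a probe were averaged (432 probes had more than 1), and no filter on dim probes was used. No spot was saturated. The values correlated with the deposited table of the same array at 0.997 to 0.999. A probe was well above background where the scanner software rated 50% or more of its spots that way. The number of arrays limits the precision. The study describes the replicates as different biological samples from independent experiments, and p-values rest on the spread between 2 samples in each group.

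Each comparison was fitted in R 4.3.3 with limma 3.58.1 (lmFit and eBayes, two-sided) on its own 4 arrays, and p-values were adjusted by Benjamini-Hochberg over all probes, with calls at 0.05 and a fold change over 2. The test, the adjustment and both limits follow the study's methods, while the restriction to 4 arrays was chosen here. The script was tested on simulated data. Genes were read from their brightest probe. Named were all members, the pathway genes called in at least 1 knockout comparison, Tia1, Tial1, and for members called against WT the 3 most similar genes, except a few items that are not reported here. Marker genes and uncalled pathway genes given as examples were named after their values were seen. Members and lists were chosen with earlier results of these data known. Same-numbered replicates did not deviate together (r = 0.0780, 0.0302 and -0.0729 for the 3 pairs of groups), so no block was used. Alternatives were the processed signal scaled to its 75th percentile, an offset of 16, no loess, a common median, the deposited table, a dim-probe filter, outlier spots kept, 1 fit of all groups, an intensity trend, a replicate block, the mean of a gene's probes, and leaving out each array. Promoters and motifs were read from RefSeq sequences of GRCm38.p6. Gene features at the mm9 probe positions were not analysed here.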

Additional observations from a re-analysis of the deposited data

Results flagged for a closer look

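With 2 arrays per group, no array could be tested as standing apart from its group. The results below were singled out because the 2 knockouts differed in a direct limma comparison, as the log2 difference of TIAR KO minus TIA1 KO. Among the members these were Notch1 (-2.06) and Notch3 (2.50). Among the other pathway genes, TIAR KO was lower for Mfap5 (-6.01), Mfap2 (-4.89), Dlk2 (-2.91), Tle1 (-2.59) and Neurl1a (-1.84) and higher for Tle4 (1.97, at least 2.65-fold). A fold is given as at least so large where no TIA1 KO array was well above background. Mfap2 and Dlk2 were above WT in TIA1 KO and below it in TIAR KO. Among the smooth muscle and pericyte markers, Cspg4 was lower in TIAR KO (-5.74), and Cnn1 (2.79), Des (1.54, at least 2.08-fold) and Mcam (1.33) were higher. Of the fibroblast markers, Thy1 (7.49, at least 131-fold), Dcn (6.48) and Pdgfra (1.46) were higher in TIAR KO. The epithelial markers Krt18 (2.72) and Cdh1 (1.32, at least 1.68-fold) were higher there too, while of the leukocyte markers Cd68 was higher (1.48) and Itgam lower (-1.66). Genotype, strain label and cell line cannot be told apart in any of these. Each of these calls was lost in 3 or more alternatives, among them a replicate block. Krt18, Cdh1, Itgam and Mcam lost theirs in 6 of 15, and Neurl1a, Cd68, Des and Pdgfra in 5 of 15. The difference in Itgam was then as small as -0.17.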

How the results depend on the processing

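Each comparison rests on 4 arrays, and many members lie near background, which limits what can be measured of their lower group. Of 438 member values under alternatives, 385 kept their direction and side of the threshold, 19 lost a call, 19 gained one and 15 changed sign. Of 944 values of called list genes, 734 kept their call, 208 lost it and 2 changed sign. In TIAR KO against WT the same 4 Notch genes were called throughout, with 3206 probes, and 2316 to 2792 when 1 array was left out, and 4139 at most, with a common median. In TIA1 KO against WT (2 Notch genes, 1969 probes) the counts were 0 and 0 with the processed signal at its 75th percentile (limma, 27765 probes at an unadjusted p under 0.05), 4 and 15801 with a common median, 1 and 1309 in the deposited table, 3 and 3986 with all groups in 1 fit, 2 and 2922 without dim probes, 1 Notch gene with an offset of 16, without loess or with an intensity trend, and 0 to 4 and 0 to 10726 without 1 array. In TIAR KO against TIA1 KO (2 and 1866) they were 1 at the 75th percentile, 5 and 8307 with a common median, 5 and 3183 in 1 fit, 2 and 2910 without dim probes (Notch3 and Dll1, with Notch1 not tested there), 1 with the mean of a gene's probes, and 0 to 6 and 0 to 10069 without 1 array. The counts of 0 came without either WT array in TIA1 KO and without either TIAR KO array between the knockouts, where the lone array left is assumed to vary like the other group. With a replicate block, 1 Notch gene and 674 probes were called in TIA1 KO, 4 and 3300 in TIAR KO and 0 and 0 between the knockouts (limma, 10652 probes at an unadjusted p under 0.05), although the replicate numbers did not pair the samples. Higher calls made up 61.6% in TIA1 KO, but 11.9% with a common median, 44.7% without dim probes, 47.2% in 1 fit and 75.2% with the block. They made up 58.8% in TIAR KO, but 34.4% with a common median, and 51.3% between the knockouts, but 8.28% at the 75th percentile, 87.2% with a common median and 61.8% without dim probes. The median of all probes moved to -0.67 (common median) and 1.98 (75th percentile) in TIA1 KO, and to 0.63 and -1.85 between the knockouts. Signs changed with a common median in TIA1 KO for Jag1 (-0.28), Hes1 (-0.44), Dlk2 (-0.30) and Tle3 (-0.46). At the 75th percentile they changed for Hey2 in TIA1 KO (2.93) and between the knockouts for Notch2 (-0.23), Hes1 (-1.24) and Hey2 (-2.97), and in the deposited table for Hey2 between the knockouts (-0.035). Leaving out 1 array in turn moved Notch2 between -1.14 and 0.55 in TIA1 KO, -1.08 and 0.61 in TIAR KO and -0.36 and 0.47 between the knockouts, Hes1 between -0.0145 and 0.0339 in TIA1 KO, and Hey2 between -0.0843 and 0.21 between the knockouts. The causes were not tested.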
